A study of Mus musculus with 36 samples.

Results

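The comparison described here is 12 h against 4 h of tetracycline in mouse NIH3T3 fibroblasts that carry an Erbb2 transgene. It rests on the 8 arrays whose titles name these times, 4 at each, of 36 arrays in the series, and on all 9442 named genes with enough values. In this tet-off system tetracycline switches the transgene off, so both groups are Erbb2-transfected cells after withdrawal of the oncogene, and they differ in how long the drug was present. Each array was hybridised with cDNA from treated cells in one dye and cDNA labelled as coming from untreated Erbb2-transfected cells in the other. Replicates 1 and 2 of each time carried the treated cells in Cy5, and replicates 3 and 4 carried them in Cy3. The drug dose, the number of clones and whether replicates are separate cultures are not given in the sources used here. If the replicates are not separate cultures, p-values measure only technical spread. The protocol in the labels describes tissue from animals for both channels, which goes against the cell line named as source. A difference between 12 h and 4 h is free of the reference only if the same RNA was used on all arrays.

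ERBB2 is a receptor tyrosine kinase that signals through the RAS-ERK and PI3K-AKT routes, and in excess it drives proliferation and transformation of fibroblasts. Loss of an oncogenic kinase removes signals that sustain growth factor target genes, protein and lipid synthesis. Fibroblasts are also the main makers of fibrillar collagen, which oncogenic RAS-ERK signalling is known to repress. Whether any of these routes accounts for a difference described below was not tested.

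The values are log2 ratios of treated over untreated cells, centred on each array's median, so 0 means the middle of all probes and not an absolute level. The numerator is not stated in the sources used here, and Cy5 over Cy3 was assumed, which makes the direction on the Cy5 arrays treated over untreated. If the deposited ratio were Cy3 over Cy5, every sign and direction below would turn. No probe on the array was named Erbb2, so the withdrawal itself could not be checked. Ccnd1 also had no probe, and the single Fos probe had too few values. A ratio gives no expression level, and the fibroblast label could therefore not be checked from the level of its markers. The 8 arrays held between 18840 and 19945 values each. Before centring, the array medians lay between 0.089 and 0.462 at 4 h and between 0.006 and 0.054 at 12 h, a gap that centring removes. The second 12 h array had the most values at the deposited ceiling, 111 against 28 to 70 on the others. The number of arrays limits the precision of every value below.

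At 12 h, transcripts of the collagen genes Col1a1, Col1a2 and Col3a1 and of Sparc were higher than at 4 h. Lower were a few chaperones (among them Hspa5, Hspa9 and Hspd1), 6 of 49 cytoskeletal genes, 3 of 30 translation factors and the lipid synthesis enzymes Hmgcs1 and Acly, while most members of these lists did not pass. Of 18889 probes tested, 104 passed an adjusted p of 0.05, which is 0.551% of all. Of these, 20 were higher at 12 h (0.106% of the probes tested) and 84 were lower (0.445%). With the opposite numerator, 84 would be higher and 20 lower, with these collagens falling and these chaperones rising. The test was limma's moderated test on 20 arrays of 1 h to 24 h with a dye term, with Benjamini-Hochberg adjustment over all probes. The called probes belonged to 73 named genes, 14 higher (0.148% of the 9442 genes) and 59 lower (0.625%), and 25 called probes had no single gene name. All 73 genes are named below, some of them chosen for fuller description after their values were seen. Most differences were modest, since 18 of the 104 reached 2-fold. The values at 12 h and those at 4 h did not overlap for 101 of the 104, against 4.18% of all probes tested. With only the 8 arrays of these times in the fit, no probe passed, although 1305 had an unadjusted p under 0.05, against 1549 in the fit of 20 arrays. The calls therefore rest on the spread that all 5 times share. Without centring 23 probes passed, and with the untreated and 3-day arrays added to the fit 13 passed, all of them among the 104. When the 8 arrays were left out one at a time, 39 of the 104 probes passed in every fit. The counts ran from 48 to 94, with 48 and 57 without replicates 2 and 1 of 4 h and 52 and 67 without replicates 2 and 1 of 12 h.

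The collagen genes Col1a1, Col1a2 and Col3a1 were the clearest group among those that rose, while the other collagen genes tested did not pass. Of 39 matrix genes tested, 4 were called higher and none lower, against 14 and 59 of 9442 genes overall. The matrix genes' median difference was 0.08 on the log2 scale, against -0.01 over all genes, so the change lay in those few members and not in the list as a whole. Col1a2 encodes the alpha-2 chain of type I collagen. On the probe of smallest p its centred log2 ratio was -1.02, -1.07, -1.22 and -1.42 on the arrays of 4 h, and -0.13, -0.36, -0.11 and -0.28 on those of 12 h. Every array of 12 h was thus above every array of 4 h. The difference was 0.96 (SE 0.09, adjusted p = 0.0001714), a 1.95-fold higher ratio. Another pair of Col1a2 probes differed by 1.01 and 0.72 and passed as well. The fourth differed by 0.75 and did not pass (adjusted p = 0.0708). Col1a1 encodes the partner chain of the same fibre. It went from -0.91, -0.88, -1.06 and -1.09 at 4 h to -0.35, -0.42, -0.02 and -0.06 at 12 h, again without overlap. That is a difference of 0.77 (SE 0.11, adjusted p = 0.002305), and its other probe gave 0.71 (adjusted p = 0.01853). Col3a1, the chain of type III collagen, had a mean of -1.07 ± 0.10 (SD, n = 4) at 4 h and -0.17 ± 0.18 (SD, n = 4) at 12 h. The difference of 0.90 passed (SE 0.16, adjusted p = 0.01853). Sparc, a secreted collagen-binding glycoprotein, was below 0 at 4 h (-0.29, -0.23, -0.47 and -0.87) and above 0 at 12 h (0.33, 0.19, 0.56 and 0.67). Its difference was 0.90 (SE 0.14, adjusted p = 0.004431). A second Sparc probe gave 0.68 (adjusted p = 0.02232) and the remaining one 0.46, which did not pass (adjusted p = 0.1). Without centring, Col1a2 alone of the matrix genes passed.

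The remaining 35 matrix genes did not pass. Among them were the other collagen genes, whose differences on the probe of smallest p ran from -0.69 (Col4a1) to 0.38 (Col4a2). Dcn, the proteoglycan decorin, had a mean of -1.13 ± 0.40 at 4 h and -0.60 ± 0.16 at 12 h (SD, n = 4 each), a difference of 0.53 (adjusted p = 0.262). Postn, the matricellular protein periostin, stayed far below 0 at both times, with means of -1.62 ± 0.37 and -1.85 ± 0.38 (SD, n = 4 each). Its difference was -0.22 (adjusted p = 0.871), and under quantile normalization it was 0.73. The 3 probes of Lox, the enzyme that cross-links collagen, gave differences of 0.35, -0.28 and 0.21, with adjusted p between 0.694 and 0.75. Among matrix proteases and their inhibitors, 1 of 18 was called. This was Adamts1, a secreted metalloprotease, which went from -1.93, -1.69, -1.65 and -1.58 at 4 h to -0.59, -0.91, -0.77 and -0.49 at 12 h. The difference of 1.02 (SE 0.18, adjusted p = 0.01471) is a 2.03-fold higher ratio, yet all 4 arrays of 12 h were still below 0. Timp2, a metalloprotease inhibitor, had a difference of 0.65 with overlapping groups (adjusted p = 0.567).

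**Figure D1:**
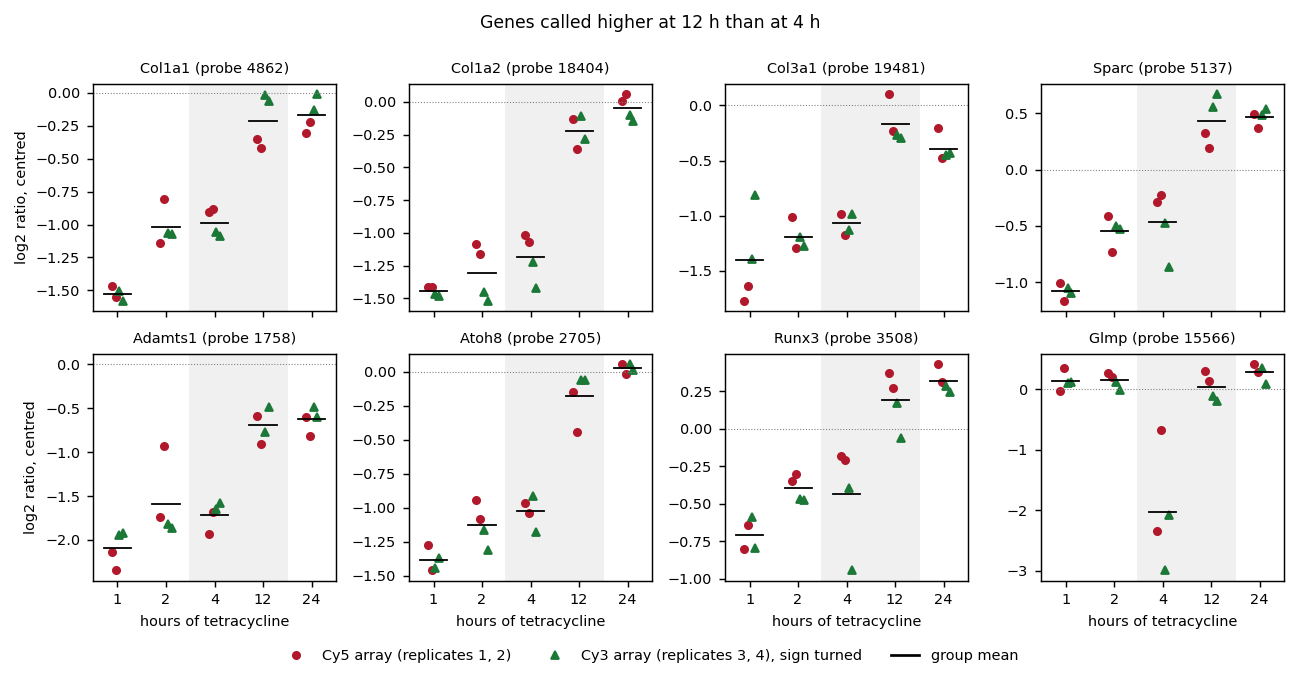
Centred log2 ratio of treated over untreated cells on each array at 1, 2, 4, 12 and 24 h of tetracycline for 8 genes called higher at 12 h, on the probe of smallest p; circles are Cy5 arrays, triangles are turned Cy3 arrays, lines are group means and the shaded band holds the times compared. Col1a1, Col1a2, Col3a1, Adamts1 and Atoh8 are low at 1, 2 and 4 h and higher at 12 and 24 h, whereas Glmp is low at 4 h alone.

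A pair of transcription regulators rose with a similar course. Atoh8, a basic helix-loop-helix factor, went from -0.96, -1.04, -0.91 and -1.18 at 4 h to -0.15, -0.45, -0.06 and -0.06 at 12 h. The groups did not overlap, and the difference was 0.84 (SE 0.10, adjusted p = 0.0007304). It was the only called gene among 27 of the TGF-beta and BMP list. Runx3, a runt-domain factor, had means of -0.43 ± 0.35 and 0.19 ± 0.19 (SD, n = 4 each). Its difference was 0.62 (adjusted p = 0.02703), while a second Runx3 probe gave 0.01.

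The other genes called higher had varied courses. Glmp encodes a glycosylated lysosomal membrane protein. Its values at 4 h were -2.35, -0.68, -3.00 and -2.08, against 0.30, 0.14, -0.12 and -0.19 at 12 h. The difference was 2.06 (SE 0.29, adjusted p = 0.002305), but its means at 1 h and 2 h were 0.14 and 0.15, so the arrays of 4 h alone stood apart. Icmt, a prenylcysteine methyltransferase, had 3 values at 12 h, 4.18, 1.90 and 4.43, the first 12 h array having none. At 4 h it was -1.0, 0.16, -0.03 and -0.58. The fitted difference of 3.99 passed (SE 0.66, adjusted p = 0.01853), and the mean at 24 h was 0.42, so here the arrays of 12 h stood apart. It had enough values for 5 of the fits that left out 1 array and passed in 3. Sdf2 differed by 0.89, Pkp4 by 0.84 and Sf3a1, a splicing factor subunit, by 0.83. The Pkp4 and Sf3a1 genes each had another probe with a difference of 0.02. Gm5646 differed by 0.52 with overlapping groups, and Pja2, a ubiquitin ligase, by 0.41. Pja2 was also higher at 24 h than at 2 h, by 0.53 (adjusted p = 0.00311). Of the 14 genes called higher, Col1a1, Col1a2, Sparc, Atoh8 and Glmp kept the call on at least 1 probe in all fits that left out 1 array. Adamts1 lost it when the first 4 h array was left out (adjusted p = 0.0549). Col3a1 lost it without replicate 2 or 3 of 4 h or replicate 1 or 2 of 12 h, with adjusted p reaching 0.0721.

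Chaperones of the secretory pathway and of mitochondria were among the genes that fell. Of 30 genes of the unfolded protein response and secretory folding, 3 were called lower and none higher, against 0.625% of all genes called lower. The median difference of the list was -0.25, with 21 members below 0 and 9 above. Hspa5 encodes BiP, the main HSP70 chaperone of the endoplasmic reticulum and a standard target of the unfolded protein response. It was 1.24, 1.34, 0.90 and 0.78 at 4 h and -0.20, -0.60, -0.16 and 0.04 at 12 h. Every value at 4 h thus exceeded every value at 12 h. The difference was -1.29 (SE 0.18, adjusted p = 0.002187), a 2.45-fold lower ratio. Canx, the lectin chaperone calnexin, went from 0.73, 0.76, 0.53 and 0.55 to 0.16, 0.05, 0.03 and 0.11, a difference of -0.55 (SE 0.08, adjusted p = 0.004031). Its other probes gave -0.41 and -0.32 and did not pass. Manf, a secreted factor induced by stress of the endoplasmic reticulum, had means of 0.73 ± 0.35 and -0.06 ± 0.32 (SD, n = 4 each). Its difference of -0.80 passed (adjusted p = 0.03949) but lost the call in each of the 8 fits that left out 1 array. Serp1, a stress-associated protein of the endoplasmic reticulum, is not on the list and was placed here after its value was seen. It fell by 0.65 (adjusted p = 0.009479), while its other probe differed by -0.05. Without centring, Hspa5 alone of the listed genes passed.

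The promoters of Hspa5 and Canx each held the endoplasmic reticulum stress response element, and they are shown because both genes fell. The element was searched on both strands as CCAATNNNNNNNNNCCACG in the 250 bases before each gene start, in RefSeq windows of GRCm38.p6. It stood in 37 of 32851 windows (0.113%). Windows were found for 48 of the 59 genes called lower, and 2 of these 63 windows held it. None of the 15 windows of the 12 matched genes called higher did. In the sequences, read 5′ to 3′ on the gene's strand, capitals mark the match.
Hspa5, chr2:34772010-34772058, plus strand: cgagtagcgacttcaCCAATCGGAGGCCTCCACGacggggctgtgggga
Canx, chr11:50325785-50325833, minus strand: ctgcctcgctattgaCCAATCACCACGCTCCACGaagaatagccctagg
The stretches lie 80 to 32 bases before the start of Hspa5 and 160 to 112 bases before that of Canx. The shorter motif CCAAT, which the element contains, was found in 33.8% of all windows, in 38.1% of those of genes called lower and in 33.3% of those of genes called higher. A match describes the letters in the window and does not show that a factor bound there.

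Among 30 heat shock and chaperonin genes, 3 were called lower and none higher, against 0.625% of all genes called lower. The median difference of the list was -0.18. Hspa9 encodes mortalin, the HSP70 of the mitochondrial matrix. Its values were 0.42, 0.76, 0.46 and 0.35 at 4 h and -0.45, -0.86, -0.54 and -0.32 at 12 h. The sign changed on all arrays, with a difference of -1.04 (SE 0.13, adjusted p = 0.0006703). Its other probes gave -1.24 and -0.07 and did not pass. Hspd1, the mitochondrial chaperonin HSP60, went from 0.99, 0.85, 0.95 and 0.80 to 0.32, 0.10, -0.07 and 0.11. That is a difference of -0.78 (SE 0.10, adjusted p = 0.0008589), and its other probe gave -0.17. Dnaja1, a cytosolic HSP40 co-chaperone, differed by -0.47 (adjusted p = 0.04035), a call that held in 1 of the 8 fits without 1 array. Hspa5, Canx, Serp1, Hspa9 and Hspd1 passed in all 8.

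**Figure D2:**
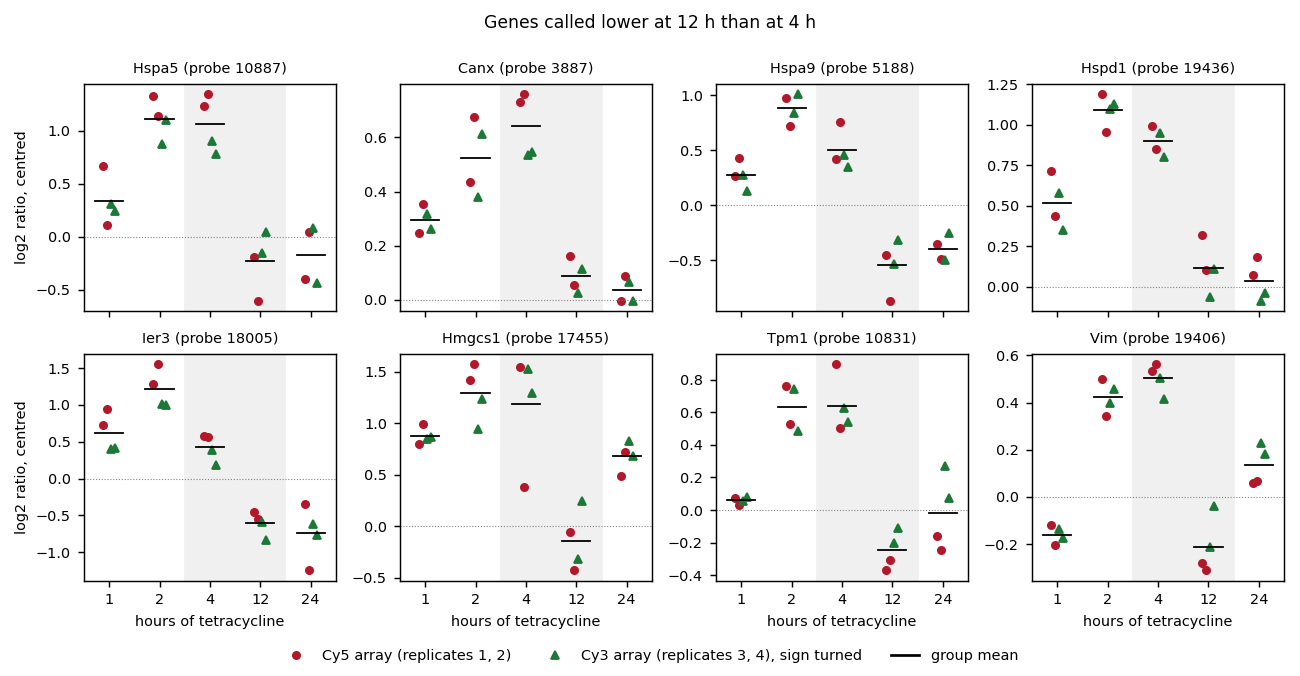
Centred log2 ratio of treated over untreated cells on each array at 1, 2, 4, 12 and 24 h for 8 genes called lower at 12 h, drawn as in the plot of genes called higher. In all 8 the arrays of 4 h lie above those of 12 h, and Hspa5, Hspd1, Hspa9 and Ier3 have their highest group mean at 2 h.

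Cytoskeletal genes gave the largest number of lowered members of any list, 6 of 49, with none called higher, though lists differ in size. Over all genes, 59 of 9442 (0.625%) were called lower. The median difference of the cytoskeletal genes was -0.05, close to that of all genes, and 43 members did not pass. Tpm1, an alpha-tropomyosin that stabilises actin filaments, went from 0.90, 0.50, 0.62 and 0.54 at 4 h to -0.37, -0.31, -0.20 and -0.11 at 12 h. The difference was -0.89 (SE 0.12, adjusted p = 0.001385), and its other probe gave -0.05. Vim, the intermediate filament protein of fibroblasts, went from 0.54, 0.56, 0.50 and 0.41 to -0.28, -0.31, -0.21 and -0.04. Both Vim probes passed, with differences of -0.71 (SE 0.08, adjusted p = 0.0003746) and -0.75 (adjusted p = 0.002305). Both probes of Actb, the cytoplasmic beta-actin, passed too, with differences of -0.78 (SE 0.13, adjusted p = 0.007081) and -0.63 (adjusted p = 0.02563). Tmsb4x, which binds actin monomers, fell by 0.75, Acta2, the smooth muscle actin, by 0.71 and Tagln2 by 0.68. Outside the list, Actc1, the cardiac actin, fell by 0.62, Iqgap1, a scaffold at the cell cortex, by 0.77 and Wdr1, a cofactor of filament disassembly, by 0.49. The actin genes are close in sequence, so cDNA of one may bind another's probe, and a second Acta2 probe differed by 0.21. Tpm1, Iqgap1, both Vim probes and 1 Actb probe passed in all 8 fits without 1 array. Wdr1 passed in none of them, Tagln2 in 1, Acta2 and Actc1 in 3 and Tmsb4x in 4. Without centring none of the 6 listed genes passed.

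A CArG box, the element of serum response factor, was present in the promoter windows of Actc1 and Gsto1. These were 2 of the 63 windows of genes called lower (3.17%), and the box was found in 1.47% of all windows. No match was found for Tpm1 or Vim, which had windows. None was found for Actb, Tmsb4x, Acta2 or Tagln2 either, but these may have had no window. Only 48 of the 59 genes called lower had one. The search allowed no variant of the box, so a missing match does not show that a promoter lacks the element. The Actc1 stretch is shown since the gene was called lower, with the box in capitals.
Actc1, chr2:114052898-114052937, minus strand: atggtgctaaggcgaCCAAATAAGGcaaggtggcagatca

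Translation factors had a median of -0.30, with 27 of 30 members below 0. Over all genes 52.1% were below 0. Other lists leaned the same way, among them reference genes (7 of 8 below 0), heat shock and chaperonins (25 of 30) and the cytosolic ribosome (46 of 56). Matrix genes leaned the other way (14 of 39 below 0). Only 3 translation factors passed, all lower, while 0.625% of all genes were called lower. Eif4a1, the RNA helicase of the cap-binding complex, went from 0.79, 0.74, 0.80 and 0.53 to 0.02, -0.48, 0.31 and -0.08, a difference of -0.77 (SE 0.14, adjusted p = 0.01513). Eif1ax, a factor of start codon scanning, differed by -0.75 (adjusted p = 0.03882) and Eif5a, which carries hypusine, by -0.58 (adjusted p = 0.01991). The mean of the 2 Eif5a probes differed by -0.33 and did not pass (adjusted p = 0.352). The Eif4a1 call was lost without the first or the second 4 h array, Eif5a lost it in 4 fits and Eif1ax in 7, and without centring none of the 3 passed. Of 56 cytosolic ribosomal protein genes, Rpl8 was called, with a difference of -0.62 (adjusted p = 0.01513) that lost the call without the first 4 h array. Their median was -0.15. Eprs, a tRNA synthetase and the only called member of 33 genes of the ATF4 and amino acid list, fell by 0.42 and passed in none of the 8 fits. Slc38a2, an amino acid transporter on that list, differed by -0.46 and did not pass (adjusted p = 0.0521). Other lowered genes act on RNA. Ddx3x, a DEAD-box helicase, went from 1.05, 0.76, 0.76 and 0.47 to -0.25, -0.12, -0.24 and -0.47, a difference of -1.03 (SE 0.14, adjusted p = 0.001385). Npm1, the nucleolar protein nucleophosmin, fell by 0.79, Syncrip by 0.72, Rbm3, a cold-inducible RNA-binding protein, by 0.71 and Cnbp by 0.65. Npm1 lost the call in 3 of the 8 fits, and the others passed in all. The splicing and RNA-binding list held 2 of 55 genes called lower and 1, Sf3a1, called higher.

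An enzyme of cholesterol synthesis and an enzyme of fatty acid synthesis fell. Hmgcs1, which makes HMG-CoA for the mevalonate pathway, was 1.55, 0.38, 1.53 and 1.30 at 4 h and -0.06, -0.43, -0.32 and 0.24 at 12 h. The difference of -1.33 passed (SE 0.22, adjusted p = 0.009601), and its other probe gave -0.69 (adjusted p = 0.458). It was 1 of 13 cholesterol genes called, and Sqle and Fdps, with differences of -1.14 and -0.51, did not pass. Acly, which makes cytosolic acetyl-CoA, differed by -0.87 (SE 0.18, adjusted p = 0.03882) and lost the call in 6 of the 8 fits. Scd1 and Fabp5 both differed by -0.40 without passing. No gene of glycolysis, oxidative phosphorylation, the proteasome or the mitochondrial ribosome was called, with 18, 64, 29 and 57 members tested. At an unadjusted level their members of smallest p were Aldoa (-0.30, adjusted p = 0.0971), Cox7b (-0.62, adjusted p = 0.134), Psma6 (-0.59, adjusted p = 0.256) and Mrpl34 (-0.32, adjusted p = 0.224).

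Of the genes that report on growth factor signalling, Ier3 fell. This ERK target and immediate early gene was 0.58, 0.56, 0.38 and 0.19 at 4 h and -0.45, -0.54, -0.58 and -0.84 at 12 h. The difference was -1.03 (SE 0.16, adjusted p = 0.005785), and a second probe gave -0.77 (adjusted p = 0.0883). It was the only called gene among 19 immediate early genes, whose median was -0.22, and among 12 ERK targets, whose median was -0.19. Egr1, an immediate early transcription factor, remained the lowest of the genes named, with means of -3.25 ± 0.31 at 4 h and -2.56 ± 0.59 at 12 h (SD, n = 4 each). Its difference of 0.69 did not pass (adjusted p = 0.362), but under quantile normalization it was 1.69 and passed (adjusted p = 0.0163). Myc, with 3 values at 12 h, differed by -0.56 (adjusted p = 0.923), Mcl1 by -0.60 (adjusted p = 0.122) and Klf4 by -0.54 (adjusted p = 0.0901). None of 17 ERBB receptor, ligand and adaptor genes passed. One Egfr probe differed by 1.20 (adjusted p = 0.118), while the other 4 lay between -0.02 and 0.11.

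A pair of markers of transformed cells fell and stayed above 0. Tm4sf1, a tetraspanin-like surface protein, was 1.62, 1.44, 1.77 and 1.68 at 4 h and 0.80, 0.52, 1.20 and 0.55 at 12 h. The difference was -0.86 (SE 0.14, adjusted p = 0.00666). S100a10, the annexin A2 partner, went from 1.34, 1.23, 1.00 and 0.77 to 0.72, 0.62, 0.40 and 0.35, a difference of -0.56 (SE 0.08, adjusted p = 0.004478). Its other probe gave -0.08 (adjusted p = 0.986), and the mean of both did not pass. Tm4sf1 and the called S100a10 probe passed in all 8 fits without 1 array, and these were 2 of 28 genes on that list. Ctsl, the lysosomal protease cathepsin L, behaved alike, from 1.73, 1.82, 1.26 and 1.23 to 0.96, 0.85, 0.73 and 0.83. Its difference of -0.67 (SE 0.13, adjusted p = 0.03142) passed in 2 of the 8 fits. With Glmp it made 2 called genes of 39 on the lysosome list, one in each direction.

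Fgf7, a secreted growth factor of fibroblasts that acts on epithelia, had the largest fall among the called genes. It was 0.82, 2.48, 0.43 and 1.04 at 4 h and -0.33, -0.47, -0.99 and -0.91 at 12 h, a difference of -1.87 (SE 0.29, adjusted p = 0.005673), or 3.65-fold. Akap9, a scaffold for protein kinase A, was 1.11, 1.16, 1.02 and 0.92 at 4 h and 0.34, -0.30, -0.45 and -0.35 at 12 h. That is a difference of -1.24 (SE 0.14, adjusted p = 0.0004112), while its second probe gave 0.57 (adjusted p = 0.611). Gsto1, a glutathione transferase, differed by -1.23 (SE 0.21, adjusted p = 0.01051) and Esd, an esterase, by -1.0 (SE 0.11, adjusted p = 0.0003746). Rasgrp1, an exchange factor for RAS, differed by -0.88 (adjusted p = 0.04235) and Vwa3a by -0.87 (adjusted p = 0.01342). The mean of the 2 Vwa3a probes differed by -0.47 and did not pass (adjusted p = 0.202). Fgf7, Akap9, Gsto1, Esd and Vwa3a passed in all 8 fits, and Rasgrp1 in 2. In 2 lowered genes the arrays of 12 h stood apart from all other times. Dnajc5g had 3 values at 12 h, -1.65, -1.76 and -1.78, and group means between -0.39 and 0.25 at the other times. Arhgap25, a RAC GTPase-activating protein, had -1.04, -1.90 and -1.56 at 12 h and means between -0.25 and -0.05 otherwise. Their fitted differences were -1.79 (adjusted p = 0.01853) and -1.39 (adjusted p = 0.005785), and a second Arhgap25 probe gave 0.07. Both genes had enough values for 5 of the 8 fits, in which Arhgap25 passed 5 times and Dnajc5g 4 times.

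The remaining 19 genes called lower differed by 0.46 to 0.86. Gigyf1, Rnf11, Azin1, Dido1, Bzw1 and Dcst1 fell by 0.86, 0.86, 0.84, 0.77, 0.74 and 0.72. Aadat, Slc25a5 (the ADP/ATP carrier of mitochondria), Rap1b, Yrdc, Nme2 and Rhox5 fell by 0.68, 0.64, 0.61, 0.61, 0.60 and 0.59. Adpgk, Ubl5, Ifitm6, Eny2, Ptma, Ptp4a2 and Itgb1bp2 fell by 0.58, 0.58, 0.58, 0.53, 0.51, 0.47 and 0.46. Among these, Gigyf1, Bzw1, Dcst1 and Rhox5 passed in all 8 fits without 1 array. Gigyf1, Azin1, Dido1, Bzw1, Dcst1, Ubl5, Ptp4a2 and Itgb1bp2 had more than 1 probe, and none of them passed as a mean. Their mean differences were -0.34, -0.36, -0.40, -0.66, -0.26, -0.21, -0.41 and 0.03, in that order.

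The cell cycle lists showed no called gene. None of 34 genes of DNA replication and G1/S passed, with a median of 0.04, and none of 43 genes of G2/M and mitosis, with a median of 0.02. Pcna, the sliding clamp of DNA polymerase, had means of 1.40 ± 0.36 and 0.69 ± 0.34 (SD, n = 4 each) and did not pass (difference -0.71, adjusted p = 0.0923). Its second probe gave -0.19. Cks2, a subunit of cyclin-dependent kinases, differed by 0.42 with groups that did not overlap (adjusted p = 0.362). None of 24 genes of cell cycle brakes and growth arrest passed, nor any of 30 interferon and acute phase genes, 29 metal and oxidative stress genes or 12 clock genes. Gapdh, often used as a reference, differed by -0.24 and -0.21 on the 2 probes with a value on all arrays, while the third had an SD of 2.99 at 4 h and a difference of 0.80. Ppia differed by -0.39 (adjusted p = 0.057). Actb was the only called gene of 8 common reference genes, of which 7 had a mean difference below 0. Under quantile normalization Gapdh (-0.50) and Ppia (-0.71) were called lower too, and the medians of the glycolysis and mitosis lists lay below 0.

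**Figure D3:**
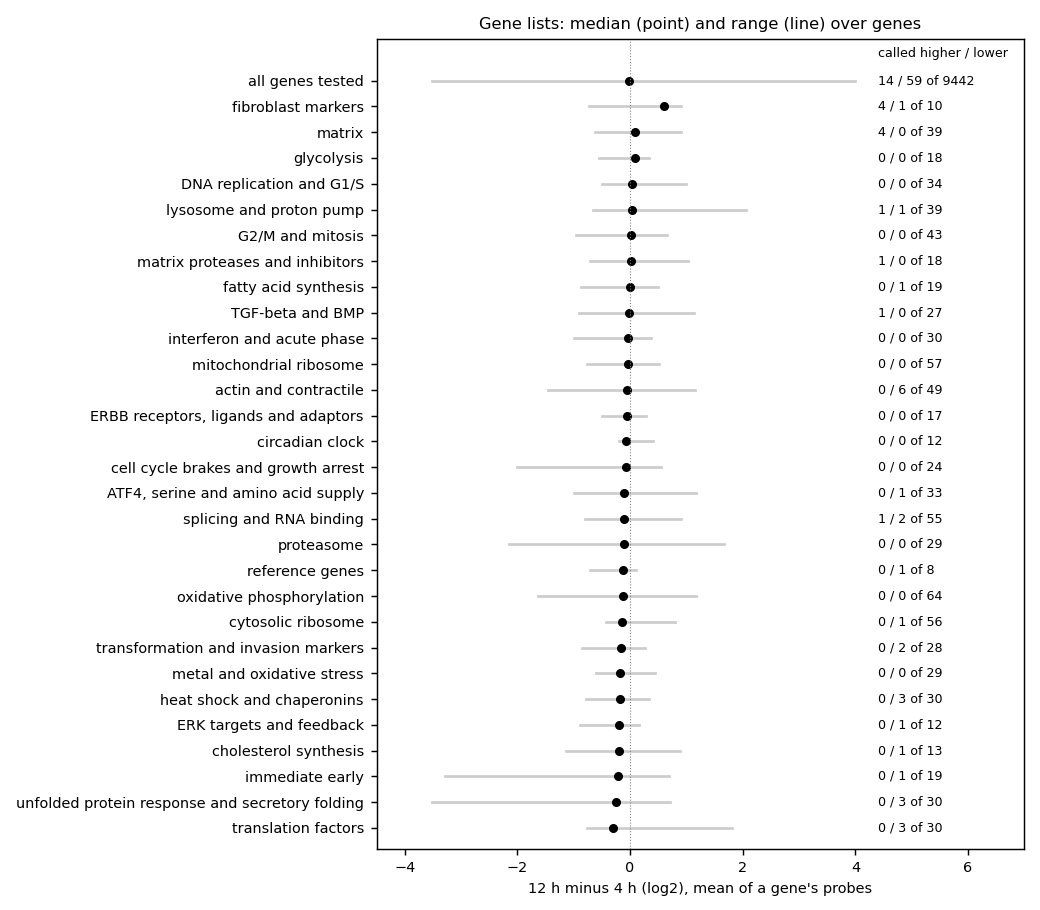
Median difference between 12 h and 4 h on the log2 scale (points) and range over genes (lines) in the gene lists, without those of epithelial, leukocyte, endothelial, adipocyte and muscle markers, and over all 9442 genes, each gene as the mean of its probes; the numbers at the right are the genes called higher and lower and the genes tested. Of the lists drawn, the fibroblast markers lie highest, at 0.61, and translation factors lowest, at -0.30.

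The fibroblast marker list moved in both directions. Of its 10 genes, Col1a1, Col1a2, Col3a1 and Sparc were called higher and Vim lower, with a median of 0.61. All 4 called higher are also on the matrix list. Of the markers of other cell types, none of 7 epithelial, 4 leukocyte, 3 endothelial or 2 adipocyte genes passed. Among 3 muscle markers Acta2 was called lower. The medians of the epithelial and leukocyte lists were 0.01 and -0.01, and that of the 3 endothelial genes was -0.33. Since ratios give no level, these values do not say whether such cells were present. Fewer cells of a type and less RNA per cell cannot be told apart in such bulk samples.

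The dye orientations were compared because the Cy3 arrays enter with their sign turned. All 104 called probes had the same sign in the 2 Cy5 arrays of each time and in the turned Cy3 arrays, against 49.4% of all probes tested. A call from the mean of both dyes favours probes with one sign, so this count is a description. Within the Cy5 arrays Col1a2, Hspa5, Hspa9 and Ier3 differed by 0.80, -1.69, -1.25 and -1.07, and within the Cy3 arrays by 1.13, -0.90, -0.83 and -1.0. Fitted within one dye, 33 of the 104 passed in the Cy5 arrays, where 65 of all probes passed, and 12 in the Cy3 arrays, where 17 passed. A test of the difference between the dyes called 7 probes (0.0371% of those tested), and none of the 104 was among them. Over all 18889 probes the differences within Cy5 and within Cy3 were unrelated as a description (Pearson -0.0168, Spearman -0.00851 across probes, which share arrays and are not replicates). With the sign of the Cy3 arrays left as deposited, no probe passed, although 1383 had an unadjusted p under 0.05, and the differences of Col1a1, Col1a2 and Sparc turned below 0. The direction on the Cy5 arrays does not depend on that choice.

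**Figure D4:**
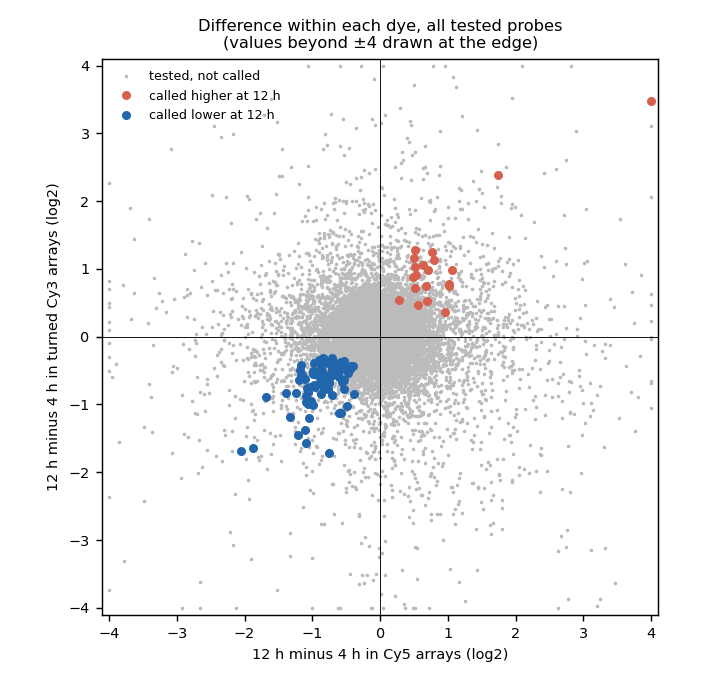
Difference between 12 h and 4 h within the Cy5 arrays (x axis, log2) against that within the turned Cy3 arrays (y axis, log2) for each probe; grey points did not pass, red were called higher and blue lower at 12 h, and values beyond 4 are drawn at the edge. The called probes lie in the quadrants where both dyes have one sign, and the grey cloud shows no slope.

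Most called probes were nearer to 0, the median of all probes on the array, at 12 h than at 4 h. Nearness to 0 is not nearness to the untreated reference, since each array's own median was removed. The deposited medians were above 0 in both dyes, so as treated over untreated those of the Cy3 arrays lie below 0. The mean ratio was nearer to 0 at 12 h for 88 of the 104 (84.6%), against 46.1% of all probes tested. Among the 20 called higher, the 4 h mean was below 0 in all, and the 12 h mean was within 0.5 of 0 in 16. Of the 84 called lower, 2 had a 4 h mean below 0, and 72 had a 12 h mean within 0.5 of 0. Ier3, Hspa9, Cnbp and Vwa3a went from above 0 to farther below it. Adamts1, Tm4sf1, Ctsl and S100a10 moved toward 0 and stayed more than 0.5 from it. The other times fill in the course as a description. For probes called higher, the median level was -0.75 at 1 h, -0.61 at 2 h, -0.61 at 4 h, 0.02 at 12 h and 0.02 at 24 h. For those called lower it was 0.31, 0.82, 0.69, -0.08 and 0.03. By these medians the set called higher was lowest at 1 h, and the lowered set was highest at 2 h.

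A second pair of times, 24 h and 2 h, shares no array with this comparison, though it enters the same fit. Of all 18198 probes tested in both, 2.08% were called there, 0.401% higher and 1.68% lower at 24 h. Of the 103 called probes with a value there, 96 had the same sign, against 56.0% of all probes, and 76 were called in the same direction and none in the opposite one. For Col1a2 the difference was 1.26, for Col1a1 0.85, for Atoh8 1.15, for Adamts1 0.96 and for Sparc 1.01, and each passed. Hspa5, Hspd1, Hspa9, Ier3 and Tm4sf1 fell by 1.29, 1.06, 1.28, 1.96 and 1.35 and passed as well. Vim, with a difference of -0.29 (adjusted p = 0.074), Hmgcs1, with -0.61 (adjusted p = 0.222), and Manf, with -0.28 (adjusted p = 0.55), did not. Glmp, Sdf2, Sf3a1 and Pkp4 had differences of 0.14, -0.14, -0.23 and -0.62 between 24 h and 2 h, none of which passed.

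**Figure D5:**
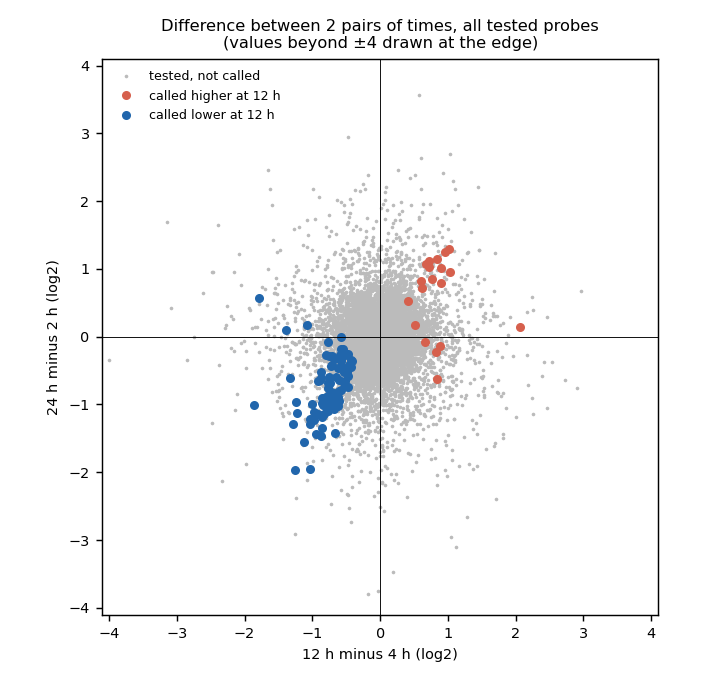
Difference between 12 h and 4 h (x axis, log2) against that between 24 h and 2 h (y axis, log2) for each probe, with colours as in the plot by dye; values beyond 4 are drawn at the edge. Most called probes share their sign in both pairs, and 96 of 103 do so.

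Genes with several probes allowed a check within the array. Of the 73 called genes, 36 had more than 1 tested probe, with 48 other probes among them. Of all 9442 genes tested, 2676 had several probes. A gene counts as called where any of its probes passes, which favours genes with several probes. Of the 48 other probes of called genes, 39 had the same sign as the called one and 6 passed too. The share of equal signs among genes not called was not computed. Col1a2 had 3 of 4 probes called, Sparc 2 of 3, and Col1a1, Vim and Actb 2 of 2. When the probes of each gene were averaged first, 44 of 9447 genes passed, 10 higher and 34 lower. Of the called genes with several probes, Col1a1, Col1a2, Sparc, Vim, Actb, Tpm1, Ier3, Hmgcs1 and Hspd1 passed as a mean. The others did not, among them Hspa9, Canx, Manf, Akap9, Gsto1, Syncrip, Iqgap1, Eif5a, Vwa3a and Wdr1.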

How the data were processed

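The deposited values are log2 ratios of 2-colour cDNA arrays, 1 per probe and array. The software, background correction and numerator are not given in the sources used here. Probe names came from the platform's own annotation, updated through RefSeq gene tables of GRCm38.p6: of 20355 probes, 14030 had exactly 1 symbol, 5 several and 6320 none. Values above 12 lie at the ceiling of 16.61 and were set missing, each array was centred on its median, and Cy3 arrays were multiplied by -1. With R 4.3.3 and limma 3.58.1, the 20 arrays of 1 h to 24 h were fitted with time means and 1 dye effect per probe, for probes with at least 3 values at both 4 h and 12 h. The contrast was 12 h minus 4 h, two-sided, with Benjamini-Hochberg adjustment at 0.05 over 18889 probes. The fit was also run on arrays simulated from the fitted model with independent noise. Such arrays share the model's assumptions, so that run cannot check the calls on the real arrays.

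Genes were named by this rule: the 15 called probes of largest difference in each direction, 12 fixed genes, and the 3 members of smallest p in each of 34 gene lists. The other called genes are named as well. In list medians a gene counts as the mean of its probes. For lists the values per gene in the text are those of its probe of smallest p. The comparison, the lists and the fixed genes were chosen with earlier results of these data known, so list counts are descriptions. Alternatives changed the arrays in the fit, the dye term, the centring, the scaling, the weights, the filters and the turning of Cy3 arrays, and left out each array in turn. The arrays of 5 and 7 days were not used here.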

Additional observations from a re-analysis of the deposited data

Results flagged for a closer look

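Among 201 groups of 4 values for named probes, 4 held an array far from the other 3, where chance gives about 5 in 100. On the probe of Actb with the smaller p, the first 12 h array was at 0.456 while the others lay between -0.139 and -0.077. The same array was at 0.098 for Col3a1, where the others lay between -0.292 and -0.23. For Ifitm6 the second 4 h array was at 0.628, above the others at 0.145 to 0.216. For the Lox probe with a difference of -0.28, the third 4 h array was at -0.09, above the others at -0.36 to -0.327.

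For 7 probes the difference between 12 h and 4 h differed between the dyes (limma, adjusted p under 0.05), and their names were chosen after the values were seen. Given as the Cy5 minus the Cy3 difference, Ptgr2 stood at 5.04, Ilrun at 4.00, a probe with no single gene name at 3.78 and Cpz, a carboxypeptidase, at 1.99. On the other side were Fam205c at -5.07, Flad1 at -4.70 and Rhob at -1.53. In Rhob the Cy5 arrays differed by -1.79 and the Cy3 arrays by -0.27. In Cpz they differed by 2.46 and 0.47. None of the 7 passed in the test over both dyes. The cause was not tested.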

How the results depend on the processing

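The main count of 104 probes stayed within 1.5 times under a dye effect for each time (112), no dye effect (70), quantile normalization (116), scaling to 1 spread (136), array weights (81), robust variance (99), stricter and looser filters on missing values (103 and 106) and ceiling values kept (102). It fell to 23 without centring, to 13 with the 3-day and untreated arrays in the fit, to 44 genes when a gene's probes were averaged, and to 0 with only the 8 arrays or with the Cy3 arrays not turned. Leaving out 1 array gave 48 to 94 calls, and the lowest counts were 48 and 57 without the second and first 4 h arrays and 52 and 67 without the second and first 12 h arrays. In an alternative chosen after seeing the data, 39 probes were called in every such fit. The replicate numbers of the labels were also fitted as a replicate block, which called 73 probes, 72 of them shared. Same-numbered arrays deviated together only weakly (correlations of 0.0679, 0.044, 0.0779 and 0.0453 over probes). Differently numbered arrays of the same dye did so about as much (0.0881, 0.0749, 0.1142 and 0.0736), so the pairing was not used. The dye-by-time test called 7 probes, 0 with only the 8 arrays and 18 after quantile normalization.

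Of the 79 called probes with a gene name, none changed sign under any alternative run other than leaving the Cy3 arrays unturned, in which 30 did and none was called. There, of the genes called lower, Adpgk stood at 0.054, Akap9 at 0.13, Arhgap25 at 0.59, Cnbp at 0.12, Dnajc5g at 0.37, Eif1ax at 0.27, Eprs at 0.00925, Esd at 0.005, Gsto1 at 0.48, Hmgcs1 at 0.12, Hspd1 at 0.07025, Itgb1bp2 at 0.01475, Rap1b at 0.04825, Rnf11 at 0.27, Vwa3a at 0.26 and Yrdc at 0.23. Of those called higher, Atoh8 stood at -0.14, Col1a1 at -0.26 and -0.0385, Col1a2 at -0.16, -0.25 and -0.19, Glmp at -0.32, Icmt at -0.54, Pja2 at -0.13, Pkp4 at -0.21, Runx3 at -0.10, Sf3a1 at -0.33 and Sparc at -0.38 and -0.20. Of those not called, Cks2 stood at -0.026, Cox7b at 0.14, Egfr at -0.20, Gapdh at 0.0755 and -0.37, Klf4 at 0.0745, Lox at 0.0745 and Slc38a2 at 0.0025. A reversal there follows from the setting, which subtracts one dye's difference from the other's. Postn, not called, was at 0.73 under quantile normalization, and the cause was not tested.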
